A study of Mus musculus with 15 samples.

Results

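The genes described here are 10 that control passage through the G1 phase of the cell cycle: the D-type cyclins Ccnd1, Ccnd2 and Ccnd3, the kinases Cdk4 and Cdk6, the kinase inhibitors Cdkn2a, Cdkn2b, Cdkn1b and Cdkn1c, and the retinoblastoma gene Rb1. They were taken by gene symbol from the array's gene table, with all 26 probe sets that the table gives to these genes alone, out of 18193 genes measured. RNA came from untreated mouse cell lines grown in DMEM with serum, on 15 Affymetrix mouse 430 2.0 arrays, each taken here as 1 line. Of these lines, 3 carry the genotype label AP and 12 the label AKP, while the series' design text counts 10 AKP lines. The labels spell out neither genotype, and they name no alleles, tissue or animal age. All 3 AP lines and 11 AKP lines are labelled tumour, and AKP 6 is labelled adenoma, a benign growth. The labels mark 10 lines as female and 5 as male, with AP 3 the female AP line.

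D-type cyclins are made when growth signals reach the cell, and they bind and activate the kinases CDK4 and CDK6. The active pairs phosphorylate the RB protein, which otherwise holds back the E2F transcription factors and the S phase genes that E2F switches on. INK4 proteins (from Cdkn2a and Cdkn2b) bind CDK4 and CDK6 and block the pairing, whereas the CIP/KIP proteins p27 (Cdkn1b) and p57 (Cdkn1c) inhibit CDK2 complexes and also bind the cyclin D complexes. Cdkn2a makes a second protein, ARF, which stabilises p53 through MDM2. Cdkn1c lies in an imprinted region, where in most tissues the maternal copy is the active one.

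Deposited log2 values are given throughout, and differences are AKP minus AP on that scale. A gene is represented by its probe set with the highest mean over the 15 arrays, and each level is compared between lines of that probe set only. Array medians ran from 3.91 to 4.17, and values below 3 crowd at a floor. The median correlation of a line with the others was lowest in AP 1, at 0.892, and in AKP 1, at 0.922. Those lines also had the highest fibroblast markers: the median of the 14 measured of 15 listed markers was 13.9 in AP 1 and 12.6 in AKP 1, followed by 9.73 in AKP 8 and at most 8.31 in the other lines. The summed log2 level of these markers ran from 103.3 to 182.6 in AP lines and from 71.1 to 165.1 in AKP lines, and Lum was below 3 in 13 of 15 lines. These markers differed by genotype label: 13 of 14 had a lower mean in AKP lines, with a median difference of -2.80 on the log2 scale. In the limma fit over all genes 2 passed as lower (Col1a1, -5.02, adjusted p = 0.040, and Lum, -0.54 near the floor, adjusted p = 0.019). The call of Col1a1 was lost in 18 of 28 alternative settings and that of Lum in 5 of 27. Without AP 1 the median difference was -0.92, and 1 marker passed as higher and 1 as lower. The part of this shift in the genotype differences below was not tested. The median of 14 epithelial markers was 2.69 in AP 1 and 4.30 in AKP 1, against a range of 4.16 to 12.1 in the other lines. Cdx1 was below 3 in all 15 lines, Vil1 in 11, Cldn4 and Cldn7 in 7 each and Cldn3 in 5. Lgals4 was below 3 in 3 lines, Elf3 in 2 and Krt8 in 1, whereas Epcam, Cdh1, Krt18, Krt19, Krt7 and Cdx2 were in 0. In AP 1, 8 of the 14 were below 3, and Cdh1 stood at 3.70. Summed epithelial levels ran from 53.8 to 130.6 in AP lines and from 76.5 to 148.4 in AKP lines. The 7 haematopoietic markers summed to 29.3 to 34.5 in AP lines and 26.7 to 35.6 in AKP lines. The defining gene Ptprc was below 3 in 14 of 15 lines and Cd52 in 10, whereas Lcp1, Laptm5, Coro1a, Cd68 and Csf1r were below 3 in 0. Cd68 ran from 3.96 to 5.13 in AP lines and from 3.69 to 10.9 in AKP lines, and Csf1r from 6.00 to 8.99 and from 4.54 to 6.45. None of the 7 passed, and at an unadjusted limma p under 0.05 there were 1 higher and 1 lower in AKP lines. The sex labels went against the sex-linked genes in some lines: the Y-linked Eif2s3y stood at 3.24 in AKP 5, labelled male, and at 12.7 in AKP 11 and 8.47 in AP 3, both labelled female. The X-linked Xist stood at 2.97 in AKP 2, another line labelled female. The labels give a pair number to AP 1 and to AKP 6 through AKP 12, each number once, and do not say what it pairs. Nothing in them says whether lines share an animal or whether any AKP arrays repeat a line. The tests took each array as a separate line, so the p-values reflect array-to-array spread alone. In RNA from whole cultures, a different mix of cells and a different level per cell cannot be told apart.

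Setting the AKP lines against the AP lines asks which of these genes differed with genotype. Cdkn2a was the one gene of the 10 whose groups did not overlap: all 12 AKP lines were above all 3 AP lines, with a mean difference of 1.05 ± 0.35 (SE). Groups without overlap, in either direction, were found for 2.13% of all genes. Ccnd1 had a difference of 0.76 ± 0.32 and Cdk4 one of -0.45 ± 0.19, with overlapping groups, and the other 7 differences were each less than 2 SE from 0. None of the 10 genes passed an adjusted p of 0.05 in the limma fit over all genes, where 1.9% of 18193 genes passed. At an unadjusted p under 0.05 there were 3 of 10 (Ccnd1, Cdk4 and Cdkn2a), against 16.5% of all genes. Among the 26 single probe sets, 0 passed in a limma fit over 45037 probe sets, of which 1.29% passed, and 8 had an unadjusted p under 0.05, against 14.8% of all. The Welch statistic with the same adjustment called 0 of the 10.

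**Figure D1:**
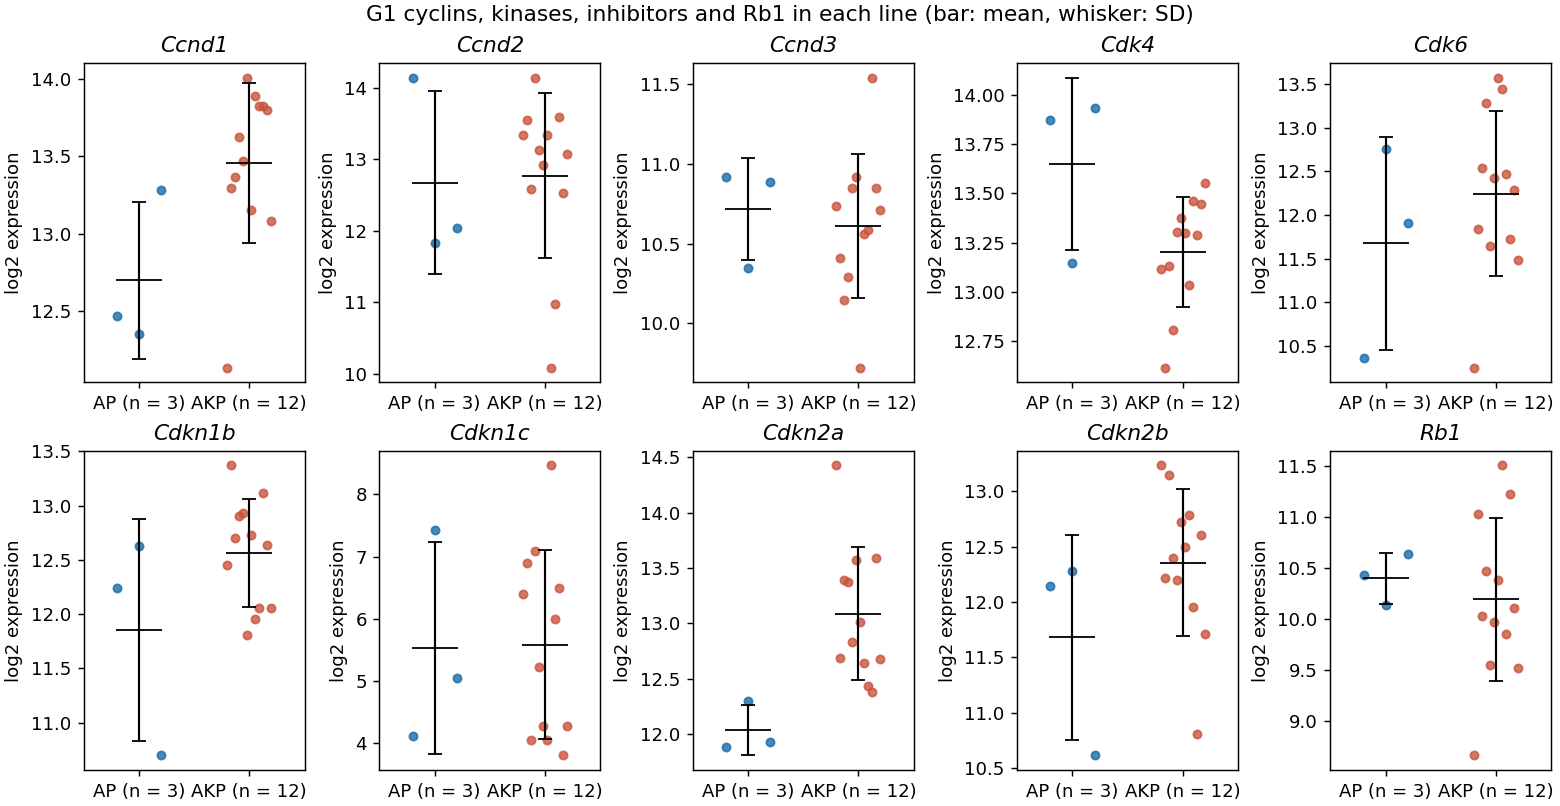
Log2 expression of the 10 genes (vertical axis) in each of the 3 AP and 12 AKP lines, with 1 point per line, a bar at each group mean and whiskers of 1 SD. Cdkn2a has all 12 AKP points above the 3 AP points, from 12.4 upwards against at most 12.3, whereas both groups overlap in the other 9 genes.

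Ccnd1, the D-type cyclin that growth factor signalling through MAPK is best known to induce, had values of 12.5, 12.4 and 13.3 in AP 1, AP 2 and AP 3. In the 12 AKP lines it ran from 12.1 through a median of 13.5 to 14.0. Of the 12 AKP lines 9 lay above every AP line, while AKP 1, at 12.1, lay below all 3. The difference was 0.76 ± 0.32 (SE; 95% interval 0.07 to 1.45; 3 and 12 lines; limma p = 0.034, adjusted p = 0.26). It was 0.76 with AP 1 and AKP 1 left out and 0.88 (adjusted p = 0.060) without AKP 1. Probe set 1417420_at separated the groups more clearly: AP lines stood at 12.2, 12.3 and 12.5, and 11 of 12 AKP lines were above them, with a median of 13.7. Its difference was 1.19 ± 0.34 (SE; limma adjusted p over probe sets = 0.11), and AKP 1, at 12.0, was again below all AP lines. Without AKP 1, the line that went the other way, this probe set passed, with a difference of 1.33 (limma adjusted p = 0.0052). Leaving out any other single line gave no pass. Without both AP 1 and AKP 1 the difference was 1.27 (limma adjusted p = 0.020). The third probe set, 1417419_at, gave 1.01 ± 0.44 (SE; limma adjusted p = 0.30), with 8 of 12 AKP lines above every AP line. Over the 15 lines, both correlated with the representative probe set at r of 0.88 and 0.85. AKP 1 also carried the highest fibroblast markers of the AKP lines, at the median of 12.6 given above, and their part in its low Ccnd1 was not tested.

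Ccnd2, another D-type cyclin, varied between lines far more than between genotypes. Its AP values were 14.1, 11.8 and 12.0, and the AKP lines ran from 10.1 through 13.1 to 14.1. AP 1 was thus the highest of all lines, and AKP 8 (10.1) and AKP 9 (11.0) lay below every AP line. The difference was 0.10 ± 0.73 (SE; 95% interval -1.47 to 1.66; limma adjusted p = 0.97), and it turned to -0.32 without AP 2. The 6 other Ccnd2 probe sets correlated with the representative at r of 0.92 to 1.00 over the lines, and AKP 8 was lowest in all 7. Ccnd3, the third D-type cyclin, was the steadiest of them: it stood at 10.9, 10.3 and 10.9 in the AP lines and ran from 9.72 through 10.6 to 11.5 in the AKP lines, with a difference of -0.11 ± 0.27 (SE; limma adjusted p = 0.89). Its 2 other probe sets did not follow it (r of -0.13 and 0.24), and 1 of these, 1444323_at, was below 3 in 14 of 15 lines.

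**Figure D2:**
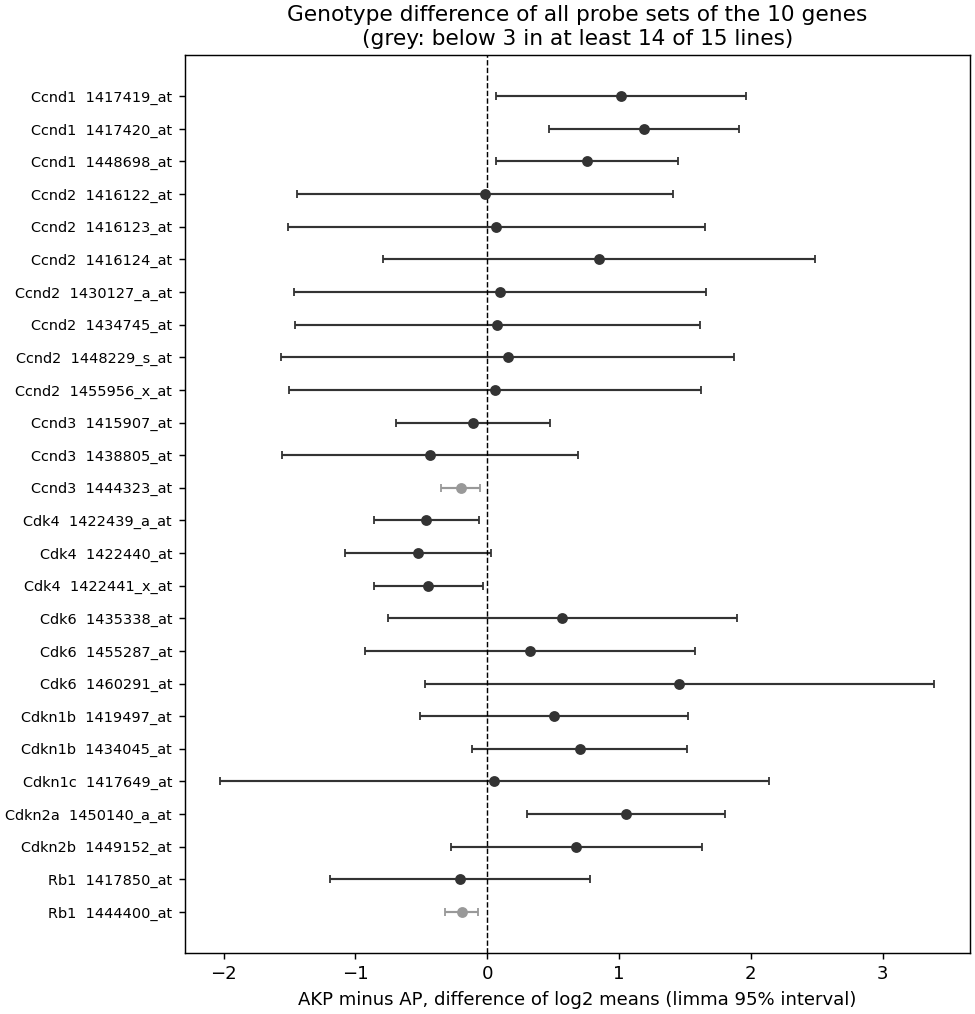
Difference between AKP and AP lines on the log2 scale (horizontal axis) with limma's 95% interval for each of the 26 probe sets, grouped by gene; grey points mark the 2 probe sets below 3 in at least 14 of 15 lines. The 3 Ccnd1 probe sets lie above 0 at 0.76 to 1.19, the 3 Cdk4 probe sets lie below 0 at -0.45 to -0.52, and the 7 Ccnd2 probe sets have intervals that span 0.

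Cdk4, the first kinase partner of the D-type cyclins, was at 13.9, 13.1 and 13.9 in AP 1, AP 2 and AP 3, and ran from 12.6 through 13.3 to 13.6 in the AKP lines. No AKP line was above every AP line, and 5 of 12 were below all 3, since AP 2 sits inside the AKP range. The difference was -0.45 ± 0.19 (SE; 95% interval -0.86 to -0.03; limma p = 0.037, adjusted p = 0.27), and without AP 2 it was -0.70 (adjusted p = 0.074). Its other probe sets gave -0.46 and -0.52 and correlated with it at r of 0.95 and 0.99. The promoter is shown because it holds a cluster of E-boxes, the letters CACGTG that MYC and related factors bind. It holds 4, at positions -172, -118, -98 and -11 from the start site, with 3 matches to the GC box letters GGGCGG on either strand. Of 32851 RefSeq promoters of the same length, 7.15% hold CACGTG at all and 0.0883% hold it 3 or more times. The sequence is RefSeq's, GRCm38.p6, chr10:127063285-127063584 on the plus strand, with E-boxes and GC boxes in capitals.
Cdk4: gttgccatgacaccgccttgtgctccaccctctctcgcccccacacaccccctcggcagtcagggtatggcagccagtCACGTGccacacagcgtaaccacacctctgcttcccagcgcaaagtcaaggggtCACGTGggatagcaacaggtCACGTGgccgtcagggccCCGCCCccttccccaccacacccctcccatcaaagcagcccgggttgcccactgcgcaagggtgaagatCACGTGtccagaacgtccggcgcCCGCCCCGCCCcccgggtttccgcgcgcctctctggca
Such matches are letters in a window of 250 bases before and 50 after the start site, and no binding was measured.

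Cdk6, the other cyclin D kinase, was at 10.4, 12.8 and 11.9 in the AP lines and ran from 10.3 through 12.4 to 13.6 in the AKP lines. The lowest values of the 15 lines were those of AP 1 and AKP 1, at 10.4 and 10.3. These are the lines with the highest fibroblast markers; the part of those markers in the values was not tested. The difference was 0.57 ± 0.62 (SE; 95% interval -0.75 to 1.89; limma adjusted p = 0.71), and with both lines left out it was 0.09. Its other probe sets followed it across lines, at r of 0.99 and 0.93. AKP 7, AKP 8 and AKP 4 were the highest lines, at 13.6, 13.4 and 13.3.

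Cdkn2a, which encodes the CDK4 and CDK6 inhibitor INK4A and the p53 activator ARF, was at 11.9, 12.3 and 11.9 in AP 1, AP 2 and AP 3. In the AKP lines it ran from 12.4 in AKP 10 through a median of 12.9 to 14.4 in AKP 1. All 12 AKP lines were above the 3 AP lines, a separation that 0.951% of all genes showed. The margin was small at its narrowest: the lowest AKP line exceeded the highest AP line by less than 0.1. The difference was 1.05 ± 0.35 (SE; 95% interval 0.30 to 1.81; limma p = 0.0096, adjusted p = 0.15), and the exact two-sided permutation test over 455 splits gave p = 0.015, with 0.0022 the smallest p that it can give. Without AKP 1 the difference was 0.93 (adjusted p = 0.085), and over 29 alternative settings it ran from 0.85 to 1.47, with an adjusted p of 0.062 to 0.61. A single probe set, 1450140_a_at, reads the gene, and it cannot separate the INK4A and ARF transcripts. Both start sites are shown because they differ so much in composition. The upstream one, which starts the ARF transcript, is 77.0% G and C with 45 CpG pairs, 3 GC boxes, and TTTCCCGC, an E2F-type match, at -99; the downstream one, which starts the INK4A transcript, is 60.3% G and C with 12 CpG pairs and 1 GC box. Across all promoters the median was 52.7% G and C and 7 CpG pairs, and TTTCCCGC occurred in 1.07% of them. Capitals mark the matches on either strand, and positions are GRCm38.p6 on the minus strand: chr4:89294570-89294869 for the upstream site and chr4:89282143-89282442 for the downstream one.
Cdkn2a, upstream start site: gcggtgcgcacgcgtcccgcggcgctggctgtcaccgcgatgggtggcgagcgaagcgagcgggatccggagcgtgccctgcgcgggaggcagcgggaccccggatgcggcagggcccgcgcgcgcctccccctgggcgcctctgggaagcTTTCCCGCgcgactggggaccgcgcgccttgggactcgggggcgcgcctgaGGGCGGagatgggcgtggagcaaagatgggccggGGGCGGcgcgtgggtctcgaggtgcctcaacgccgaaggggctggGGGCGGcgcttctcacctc
Cdkn2a, downstream start site: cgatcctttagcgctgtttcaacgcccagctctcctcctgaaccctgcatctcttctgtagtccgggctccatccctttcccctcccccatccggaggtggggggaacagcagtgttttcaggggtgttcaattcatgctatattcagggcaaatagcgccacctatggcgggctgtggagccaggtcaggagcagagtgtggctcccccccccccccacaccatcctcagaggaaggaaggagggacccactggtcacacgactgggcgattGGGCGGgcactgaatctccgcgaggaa
Both promoters are of the reference genome, and none was read from these lines.

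Cdkn2b, which encodes the inhibitor INK4B from the gene next to Cdkn2a, was at 12.1, 12.3 and 10.6 in the AP lines and ran from 10.8 through 12.5 to 13.2 in the AKP lines. Of the 12 AKP lines 7 were above every AP line and none was below all of them, and AP 3 was the lowest line of all. The difference was 0.68 ± 0.44 (SE; 95% interval -0.27 to 1.63; limma adjusted p = 0.49), and it fell to 0.14 without AP 3. Its promoter is shown for comparison with those of Cdkn2a. It is 57.7% G and C with 18 CpG pairs, 1 GC box, and at -46 the full CRE letters TGACGTCA, which 1.79% of promoters hold; neither Cdkn2a promoter holds them. It lies at GRCm38.p6 chr4:89310983-89311282 on the minus strand.
Cdkn2b: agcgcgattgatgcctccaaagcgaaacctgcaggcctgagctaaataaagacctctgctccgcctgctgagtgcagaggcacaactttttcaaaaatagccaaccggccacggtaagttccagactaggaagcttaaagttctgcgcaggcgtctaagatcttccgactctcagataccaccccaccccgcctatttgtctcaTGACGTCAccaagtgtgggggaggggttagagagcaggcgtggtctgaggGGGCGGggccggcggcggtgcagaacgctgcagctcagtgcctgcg
Promoters of Ccnd1, Ccnd2, Cdkn1c and Rb1 were not used here, and 6 of the 10 genes matched the promoter table.

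The neighbours moved together across lines. Over the 15 lines Cdkn2a and Cdkn2b correlated at Pearson's r = 0.72 (permutation p = 0.0026, adjusted over 6 pairs 0.016) and Spearman's rho = 0.75 (adjusted permutation p = 0.012). Within the 12 AKP lines r was 0.74 (adjusted permutation p = 0.040; rho 0.73, adjusted 0.052). Without AKP 1 and AKP 11, the lines farthest from the median of Cdkn2a, r was 0.66 (permutation p = 0.013, adjusted 0.078). AKP 1 was the highest line in both genes, and AKP 10 the lowest AKP line in both. The 5 other pairs did not pass: Rb1 with Cdkn2a gave r = -0.54 (adjusted permutation p = 0.11) and -0.28 without AKP 1 and AKP 8, and the remaining ones (Ccnd1 with Ccnd2, Ccnd1 with Cdkn2a, Cdkn1c with Igf2, Cdk4 with Cdk6) lay between -0.36 and 0.00.

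**Figure D3:**
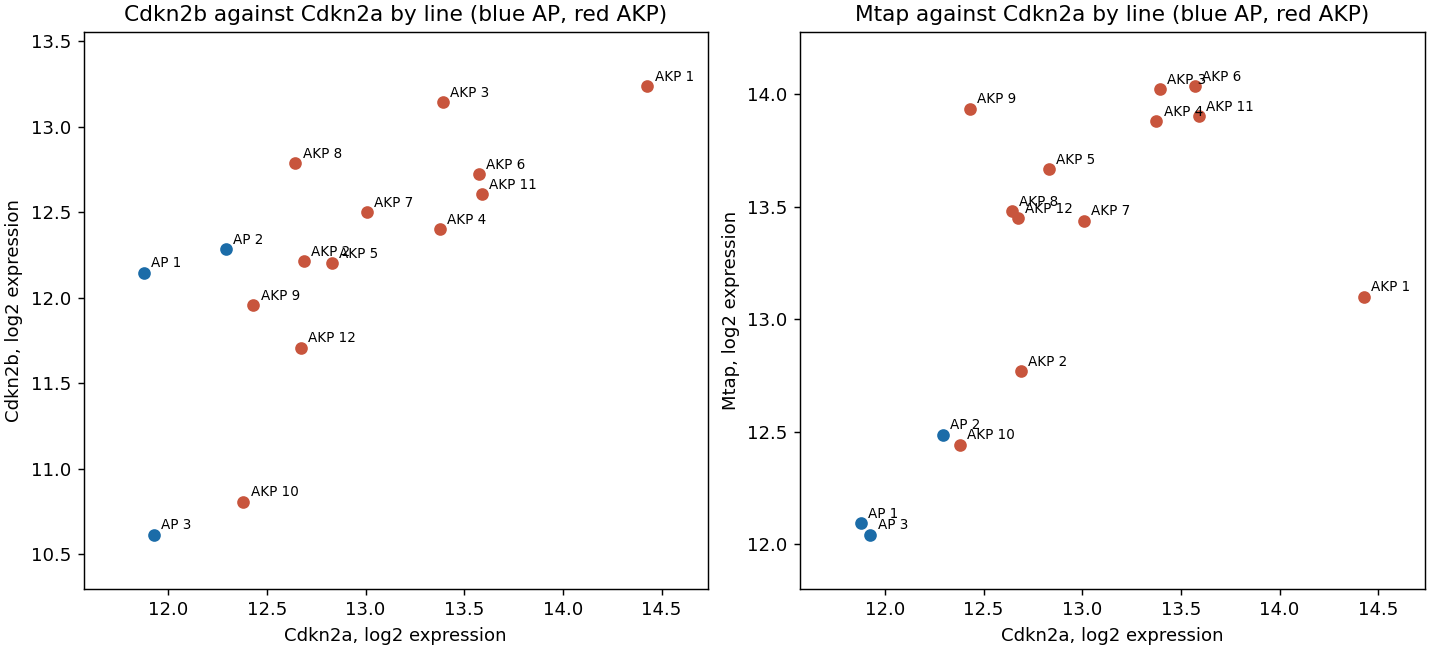
Log2 expression of Cdkn2a against Cdkn2b and against Mtap, 1 point per line, with AP and AKP lines marked. AKP 1 is highest in Cdkn2a and in Cdkn2b, and AKP 10 is the lowest AKP line in Cdkn2a, Cdkn2b and Mtap.

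Mtap, an enzyme of methionine salvage whose gene lies next to Cdkn2a on chromosome 4, was the one neighbour of a member that rose and passed. Its values were 12.1, 12.5 and 12.0 in the AP lines and ran from 12.4 through 13.6 to 14.0 in the AKP lines, with 11 of 12 above every AP line. The difference was 1.30 ± 0.30 (SE; limma adjusted p = 0.045). The call was lost in 19 of 29 alternative settings, over which the adjusted p ran from 0.018 to 0.52. Its 4 probe sets had differences from 0.78 to 1.34, and 0 of them passed in the limma fit over probe sets (3 with an unadjusted p under 0.05). Dmrta1, on the other side of Cdkn2b, stood near the floor at 3.01 to 3.53 in 14 lines and at 6.86 in AKP 3. Among 23 measured neighbours of the 10 genes, 1 passed as higher (Mtap) and 1 as lower (Igf2), against 0.792% and 1.1% of all genes in those directions. Their median difference was 0.04, and that of all genes 0.01.

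Cdkn1b, the gene of p27, was at 12.2, 12.6 and 10.7 in the AP lines and ran from 11.8 through 12.7 to 13.4 in the AKP lines. AP 3 was the lowest of all 15, and 7 of 12 AKP lines were above every AP line. The difference was 0.70 ± 0.38 (SE; 95% interval -0.11 to 1.52; limma p = 0.086, adjusted p = 0.38), and it fell to 0.12 without AP 3. A second probe set, 1419497_at, gave 0.51 ± 0.47 (SE; limma adjusted p = 0.68) and correlated with the first at r = 0.55. Cdkn1c, the gene of p57, was the most variable of the 10, from 3.80 in AKP 11 to 8.47 in AKP 8. Its AP values were 4.11, 7.43 and 5.04, and the AKP median was 5.61, so both groups covered much the same range. The difference was 0.06 ± 0.97 (SE; 95% interval -2.02 to 2.13; limma adjusted p = 0.99), and it was negative in 10 of 28 alternative settings. AKP 8 was thus the line with the lowest Ccnd2 and the highest Cdkn1c, and its fibroblast marker median of 9.73 was the third highest.

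Genes of the imprinted cluster around Cdkn1c were compared in the same lines. Igf2, a growth factor of the same imprinted cluster, was at 9.64, 14.7 and 14.7 in the AP lines and ran from 3.36 through 4.70 to 11.2 in the AKP lines, a difference of -7.76 ± 1.65 (SE; limma adjusted p = 0.030) whose call was lost in 8 of 28 alternative settings. Its lowest AKP values, from 3.36 in AKP 2, lie near the floor, so the size of the difference depends on it. Among the AKP lines it was above 10 in AKP 1 and AKP 6. Cdkn1c and Igf2 had r = -0.01 (adjusted permutation p = 0.99) over the 15 lines. Phlda2, next to it with another gene between them, was at 3.03, 3.88 and 2.76 in the AP lines and ran from 3.68 through 9.92 to 12.4 in the AKP lines. Here all AP values and the lowest AKP value lie near the floor, which enters the difference of 5.60 ± 1.51 (SE; limma adjusted p = 0.077). Slc22a18 and Kcnq1, which flank Cdkn1c, gave 0.17 ± 0.51 and 1.00 ± 1.36 (SE; limma adjusted p = 0.91 and 0.77). Near Ccnd1, the chloride channel gene Ano1 was at 3.72, 10.0 and 9.98 in the AP lines and ran from 8.71 through 12.7 to 13.4 in the AKP lines (4.34 ± 1.17, SE; limma adjusted p = 0.078).

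Rb1, the target of the cyclin D kinases, was at 10.4, 10.1 and 10.6 in the AP lines and ran from 8.67 through 10.1 to 11.5 in the AKP lines. AKP 1 was lowest and AKP 8 highest, and the AP lines lay in the middle. The difference was -0.21 ± 0.46 (SE; 95% interval -1.20 to 0.78; limma adjusted p = 0.87). Its second probe set, 1444400_at, was below 3 in all 15 lines and gives no level. AKP 1 therefore combined the highest Cdkn2a and Cdkn2b of all lines with the lowest Rb1, Cdk6 and Ccnd1.

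**Figure D4:**
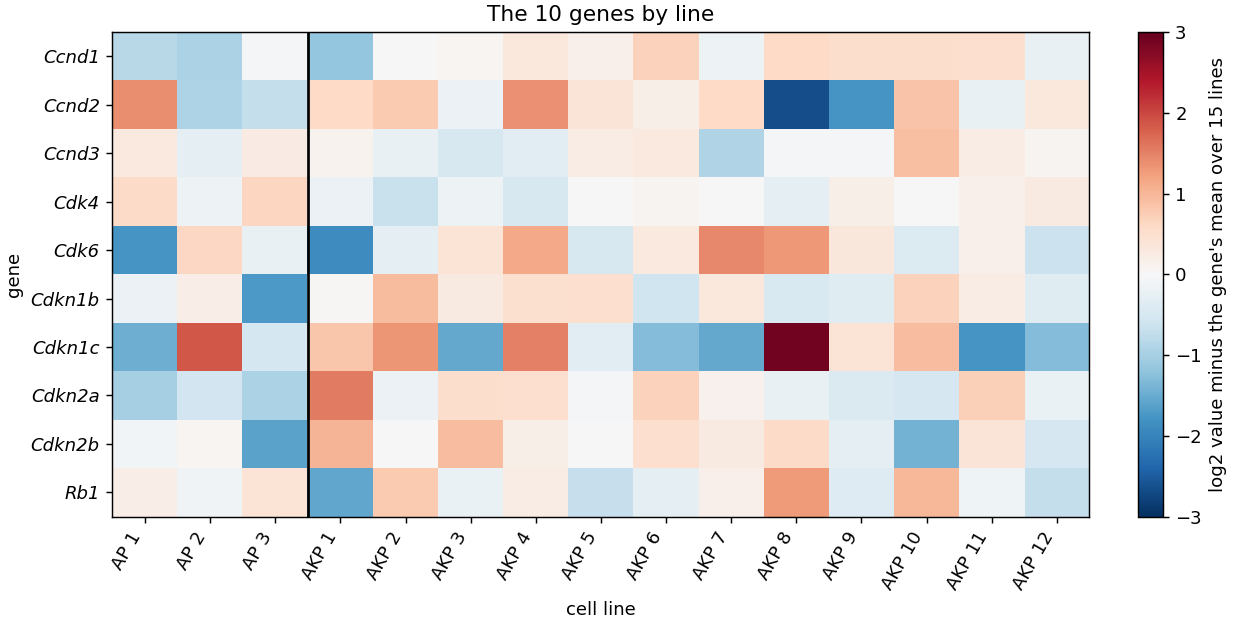
Log2 level of each of the 10 genes in each line, as the deviation from the gene's mean over the 15 lines. AKP 1 is the lowest line in Ccnd1, Cdk6 and Rb1 and the highest in Cdkn2a and Cdkn2b, and AKP 8 is the lowest in Ccnd2 and the highest in Cdkn1c and Rb1.

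The rest of the G1 and S phase machinery was described with 28 partners of these genes. None passed in either direction, and the median difference was 0.30, beside 0.01 over all genes and 0.33 over the 10. Among genes at or above the 60th percentile of mean level, the median was 0.11 over all 7277 genes. It was 0.29 over the 25 partners and 0.57 over the 9 members kept there. At an unadjusted p under 0.05 there were 6 of 28, of which 5 were higher and 1 was lower, beside 16.5% of all genes. Ccne2, an E-type cyclin that acts with CDK2 after the D-type cyclins, was at 5.70, 6.84 and 6.30 in the AP lines and ran from 6.21 through 8.67 to 10.0 in the AKP lines (2.19 ± 0.73, SE; limma adjusted p = 0.15). Cks1b, a small CDK-binding protein needed to mark p27 for destruction, gave 0.91 ± 0.22 (SE; limma adjusted p = 0.055), with 11 of 12 AKP lines above every AP line. Of 29 alternative settings, Cks1b passed only with arrays centred on their median (limma adjusted p = 0.032), without AKP 2 (0.021), without AKP 8 (0.038) and without both AKP 1 and AKP 8 (0.042). E2f6, a repressor of the E2F family, passed only without AKP 1 and AKP 8 (0.020), and E2f5 only without AP 2 (0.042). None of the 28 partners passed in any other setting. The setting without AKP 1 and AKP 8 keeps AP 1, the line with the highest fibroblast markers. E2f5, E2f6 and E2f3 gave differences of 0.90, 0.89 and 0.68, and E2f1, an activating E2F factor that RB binds, gave -0.999 ± 0.45 (SE; limma adjusted p = 0.28). Cdkn2c, another INK4 gene, gave -1.22 ± 0.65 and Cdkn1a, the p53-induced inhibitor p21, -0.26 ± 0.89 (SE; limma adjusted p = 0.38 and 0.92).

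Genes that E2F drives or that mark cycling cells gave no call among 22 measured of 25, beside 1.9% of all genes. At an unadjusted limma p under 0.05 there was 1 of 22, beside 16.5% of all genes. The median difference of 0.19 turned to -0.36 without AP 1 and to -0.29 without AP 1 and AKP 1, and was 0.82 without AP 3. Mcm4, a subunit of the replication helicase, had the lowest p, at 1.30 ± 0.57 (SE; limma adjusted p = 0.27). Mki67, the proliferation marker Ki-67, ran from 9.18 to 14.0 in AP lines and from 7.30 to 13.2 in AKP lines. In contrast, 7 of 15 measured MAPK output genes passed as higher, against 0.792% of all genes, and none as lower, with a median difference of 1.61. They were the ETS factors Etv4 (2.49 ± 0.33) and Etv5 (2.12 ± 0.40), the ERK phosphatase Dusp6 (2.78 ± 0.47), Phlda1 (1.70 ± 0.32), the feedback inhibitors Spry2 (1.61 ± 0.33) and Spred2 (1.59 ± 0.33), and the receptor Epha2 (3.22 ± 0.75; SE throughout; limma adjusted p between 0.0020 and 0.045). Leaving out 1 line at a time gave 4 to 8 of the 15, with the fewest without AP 3, and 6 passed with AP 1 and AKP 1 left out. Array weights and the Welch statistic each gave 2, and Epha2 lost its call in 15 of 29 alternative settings. Ccnd1, a known output of the same pathway, had a difference of 0.76 that did not pass.

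**Figure D5:**
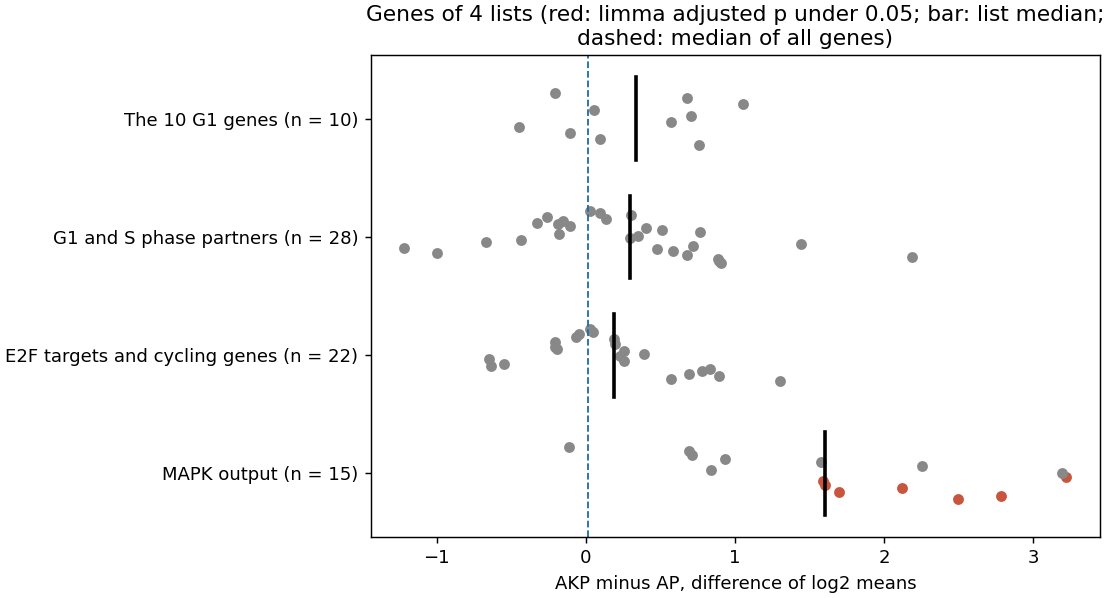
Difference between AKP and AP lines on the log2 scale (horizontal axis) for each gene of 4 lists, with red points for limma adjusted p under 0.05, a bar at each list's median and a dashed line at the median of all genes. MAPK output genes hold all the red points, 7 of 15, and the medians of the other lists lie between 0.19 and 0.33.

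Across lines, some genes followed a member closely; for 7 of the 10 genes whose values span at least 2 the 3 most alike of 7290 genes were taken, by Pearson's r over 15 lines and with no test. Cdk6 was followed by Unc13b, Dync1i1 and Robo1, each at r of 0.87 or 0.88. Cdkn1b was followed by Bmt2, Kdm5a and Rad52 at r of 0.90, 0.89 and 0.88. All 3 lie on chromosome 6, as Cdkn1b does, where 5.58% of the compared genes lie. Ccnd2 was followed less closely by Syngr1 (0.80), Sipa1l1 (0.79) and Ttc7b (0.75). Cdkn1c was most like Atp2a3 (0.83), Cdkn2a like Spag4 (0.81), Cdkn2b like Spopl (0.88) and Rb1 like Cltb (0.83). These values rest on the same 15 arrays, so lines that stand apart, such as AKP 1, enter every one of them.

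Female and male labels were compared with genotype as a covariate, and the labels go against the sex-linked genes in the lines named above. None of the 10 genes passed, as was true of 0 of 18193 genes (0%), and 1 of 10 had an unadjusted p under 0.05, against 3.16% of all genes. This was Cdkn1b, at a mean of 12.2 ± 0.72 in 10 female-labelled lines and 12.8 ± 0.34 in 5 male-labelled lines (SD), a fitted difference of -0.83 ± 0.27 (SE; limma p = 0.0092, adjusted p = 1.00). It was -0.57 without AP 3, the one female-labelled AP line. The genotype difference was tested between female-labelled and male-labelled lines as an interaction, and none of the 10 passed; Cdkn2b came nearest, at 2.34 ± 0.77 (SE; limma p = 0.010, adjusted p = 0.21), and rests on AP 3 alone for female AP lines. AKP 6, the line labelled adenoma, lay within the range of the other 11 AKP lines for 8 of 10 genes. Its Ccnd1, at 14.0, was above their highest value of 13.9, and its Cdkn1b, at 11.8, was below their lowest value of 12.0. With 1 adenoma line there is no test.

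For the same contrast, the authors' deposited table lists 501 entries, all with a step-up p under 0.05 and a fold change of at least 1.52 in size, and 0 of the 10 genes are among them. The array holds 45101 probe sets, and in the limma fit here 1.29% of 45037 passed. With so few entries, a count of 0 says little about these 10 genes.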

How the data were processed

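RNA of 15 lines was measured on 15 arrays. The authors deposited log2 expression values per probe set. How they corrected background, summarized probes and scaled arrays is not given in the sources used here. Precision is limited by the number of arrays. Of 45101 probe sets, 64 controls were left out; 34945 have 1 gene in the platform's table, 932 several and 9160 none listed, and each of 18193 genes was represented by its brightest probe set. The authors' deposited table of called entries holds, per the file headers, a p-value and its step-up value, a t score, log2 group means, their ratio, and the fold change with its sign; it was used only for which genes it lists. Groups come from the genotype label.

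Tests used limma 3.58.1 (lmFit, eBayes, two-sided, Benjamini-Hochberg over all genes or all probe sets, threshold 0.05) in R 4.3.3, on values as deposited with no filter, and scipy 1.17.1 for permutation tests (100000 resamples for correlations, exact over 455 splits for single genes). Genes and lists were chosen with earlier results of these data known, and their counts are descriptions. Named genes are all 10 members, up to 6 of each list by lowest p or all called ones, and the 3 most alike genes for members spanning 2 or more; further list genes were named after their values were seen. Names, chromosomes, neighbours and promoters are RefSeq's for GRCm38.p6; the build of the array files is not named. On simulated data over 18193 genes the AKP against AP fit recovered 52%, 70%, 78% and 92% of genes changed by 1, 2, 3 and 4 on the log2 scale. These shares are over all genes and do not give the recovery of the 10 genes, whose SE ran from 0.19 in Cdk4 to 0.97 in Cdkn1c. Cdkn2a did not pass at a difference of 1.05. Alternatives covered scaling, probe set rule, filters at the 40th and 60th percentile, variance model, covariates, a replicate block and leaving out lines.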

Additional observations from a re-analysis of the deposited data

Results flagged for a closer look

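Ccnd1 in AKP 1, at 12.1354, lay far below the other female-labelled lines, with a gap to its nearest neighbour that was large against the range of the 10 lines. Cdkn2b in AKP 10, at 10.806, lay in the same way below the other 4 male-labelled lines. In all, 20 such checks were made, and chance gives about 1 in 20. AKP 1 also had the second highest fibroblast markers of the 15 lines, with a median of 12.6, and its part in the value was not tested. AKP 10 was also the lowest AKP line in Cdkn2a, at 12.4, and in Mtap, at 12.4.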

How the results depend on the processing

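Cdkn2a, Ccnd1, Cdkn1b and Cdkn2b stayed higher, and Cdk4 and Rb1 lower, in AKP lines under all 29 alternatives, none of which called any of the 10 genes in a fit over all genes. The exact permutation test, without adjustment over all genes, put 3 of the 10 under 0.05, where 16.5% of all genes had an unadjusted limma p under 0.05. Among single probe sets, 1 passed with AP 1 and AKP 1 left out, and leaving out 1 line at a time gave 0 to 1: Ccnd1 1417420_at without AKP 1 and Ccnd3 1444323_at without AP 2, the latter near the floor. Directions turned as follows. Ccnd3 was 0.049 with array weights. Cdkn1c was -0.84 with array weights, -0.73 without AP 1 and AKP 1, and -0.32 without AKP 1 and AKP 8. Leaving out 1 line gave -0.65 to 1.01 for Cdkn1c, -0.32 to 0.83 for Ccnd2 and -0.087 to 1.11 for Cdk6. The Pearson r of Ccnd1 with Cdkn2a was -0.52 in the 12 AKP lines but 0.50 without AP 2 and AKP 1, and that of Cdkn2a with Cdkn2b 0.66 without the 2 lines farthest out, with fewer lines. The other causes were not tested. Over all genes, 345 passed; array weights gave 153, the Welch statistic 181, the 60th percentile filter 191 of 7277 genes tested (Cdkn1c not among them), leaving out AKP 1 and AKP 8 728, and leaving out single lines 177 to 584. Centring arrays moved the median of all genes from 0.01 to 0.12.

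The labels do not say whether the replicate numbers pair the lines, and 3 correlations cannot settle it. Deviations of same-numbered AP and AKP lines correlated at 0.46, -0.04 and -0.06 for replicates 1, 2 and 3. The AKP lines most like AP 1, AP 2 and AP 3 were AKP 1, AKP 3 and AKP 6. AP 1 and AKP 1 are also the lines with the highest fibroblast markers, whose part in the 0.46 was not tested. With the replicate number as a block, 0 of 18193 genes and 0 of the 10 passed in limma, 1 of the 10 had an unadjusted p under 0.05, and Cdk6 was -0.13. Only replicates 1, 2 and 3 hold both genotype labels. The block fit, counted among the 29 alternatives, therefore rests on those lines and could call little. In the female against male fit, 0 of the 10 passed under every alternative, with at most 1 under an unadjusted p of 0.05. The 3 AP lines limit all of these values.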

Other observations

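Bright genes around Cdkn2a were looked at after the values of Cdkn2a and Mtap had been seen. On chromosome 4 the first 12 genes with a mean of at least 8 were taken on each side of Cdkn2a, from Ttc39b to Jak1. These 24 genes, with Mtap and Cdkn2b among them, had a median AKP minus AP difference of 0.59 on the log2 scale. The median over 7289 runs of 24 neighbouring bright genes was 0.11, and that of all 7751 bright genes 0.10; 2.52% of the runs were at or above 0.59. The shift was not limited to this stretch: the median difference of all 444 bright genes of chromosome 4 was 0.35, and their median correlated with Cdkn2a at r = 0.54 and with Mtap at r = 0.66. As the median deviation of these 24 genes from their means over 15 lines, AP 3 stood at -0.95, AP 1 at -0.42 and AP 2 at -0.02. Across the 15 lines the median of the 24 genes correlated with Cdkn2a at r = 0.64, as a description of the same arrays. Mtap correlated at r = 0.77 with the median of its own window of 24 bright genes, from Zdhhc21 to Cachd1. For Ccnd1 the window held only the 12 bright genes before it on chromosome 7, from Tssc4 to LTO1, since no bright gene lay beyond it. They had a median difference of 0.51 and r = 0.81 with Ccnd1, and the runs of 24 genes are no background for them. Genes around Cdk4, 24 from Msrb3 to Shmt2, had a median difference of -0.31 and r = 0.23 with Cdk4. The arrays measure RNA, and copy number was not measured.

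Among pairs of the 10 genes outside the 6 tested, Cdk4 with Cdkn1b had the farthest r from 0, at -0.69 over 15 lines and -0.55 in the 12 AKP lines. The pair was picked for its size, so it has no test.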
